A study of Danio rerio with 24 samples.

Results

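The 44 zebrafish genes described here are the collagens, laminins and integrins on a commercial 44K array, out of 12858 genes with a symbol. They were chosen by symbol alone: a gene belongs when its symbol starts with col, a number, a and a number, with *lama*, *lamb* or *lamc* and a number, or with *itga* or *itgb*. There were 22 collagen genes, 6 laminin genes and 16 genes with an integrin symbol, read by 90 probes. Of the integrin symbols, *itgb1bp1* (a protein that binds the tail of an integrin β subunit) and *itgbl1* (an integrin-like protein) are not integrin subunits. Each gene was read by its brightest probe over the 24 arrays, and 17 of the 44 genes had only 1 probe. The gene table used for naming held 109 symbols of this kind, and the other 65 were not analysed here.

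The question of the study was how adult tissues respond to lipopolysaccharide (LPS), the endotoxin of Gram-negative bacteria. Adult wild-type fish of 9 months were injected intraperitoneally with 10 μg of LPS or with phosphate-buffered saline (PBS), and liver, kidney and muscle were taken 3 hours later. This gave 6 groups (liver PBS, liver LPS, kidney PBS, kidney LPS, muscle PBS and muscle LPS) of 4 arrays, each array holding the RNA of a pool of 3 fish. All groups are labelled with a normal diet, and the labels mention 8 months of differential feeding before the injection.

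Collagens are the triple-helical proteins of the extracellular matrix. The fibrillar types, such as I and V, form the fibrils of skin, tendon and bone, whereas type IV forms the network of basement membranes. Laminins are trimers of an α, a β and a γ chain that assemble basement membranes, and integrins are α and β pairs on the cell surface that bind collagens, laminins, fibronectin or fibrinogen and link them to the cytoskeleton. In fish the kidney is also the main blood-forming organ, so that it holds leukocytes and thrombocytes (the nucleated counterparts of platelets) beside tubules and vessels.

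The values are log2 signals relative to the 75th percentile of each array, called levels below, so that a level of 0 is the signal at that percentile and a difference of 1 is a doubling. The share of spots that the scanner software marked as well above background lay between 39.4% and 71.1% on 21 arrays and between 64.2% and 84.8% on the other 3, which are kidney PBS replicates 1 to 3, lie on 1 slide and were scanned on a day of their own. Each of the 10 slides held 1 tissue, and each tissue lay on 3 or 4 slides. The muscle arrays were scanned on other days than the liver and kidney arrays, so that muscle and scan day cannot be told apart. The response to LPS was present on these arrays. As a check 7 genes were chosen, namely *il1b*, *tnfa*, *nfkbiaa*, *cxcl18b*, *atf3*, *il10* and *irf1b*. Limma called 6 of them higher in the liver, 3 in the kidney and 0 in the muscle at an adjusted p under 0.05. Their median difference was 3.97, 4.40 and 2.45 in the same order, so that 0 calls in muscle did not mean no rise. All of these genes but *nfkbiaa* are among the most changed that the study listed from these same arrays, so that their rise was no independent check. All 15 skeletal muscle markers were well above background on the 8 muscle arrays, 11 of 13 kidney markers on the 8 kidney arrays and 8 of 9 hepatocyte markers on the 8 liver arrays. Markers of other tissues were detected too. On all muscle arrays 8 of the 9 hepatocyte markers, all 10 exocrine pancreas markers and all 10 epidermal markers were above background. The 10 exocrine pancreas markers were so on all liver arrays as well. On all 8 kidney arrays 10 of 15 skeletal muscle, 8 of 10 exocrine pancreas and 6 of 9 hepatocyte markers were above background. Whether this came from RNA of other tissues was not tested. In liver LPS replicate 2 the hepatocyte markers were low, with a mean of -0.44 against 3.86 to 4.48 on the other 3 liver LPS arrays, each gene being centred on its mean over the 24 arrays.

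The 3 families were detected to different degrees. Of the 44 genes, 10 were well above background on all 24 arrays, namely *col1a1a*, *col1a1b*, *col1a2*, *col4a5*, *col11a1a*, *itga5*, *itga11a*, *itgb1b*, *itgb1b.2* and *itgb1bp1*, and 2 on no array (*col28a2a* and *col9a1a*). By group, 11 were well above background on all 4 liver PBS arrays, 23 on all 4 kidney PBS arrays and 23 on all 4 muscle PBS arrays. Among the collagens the numbers were 5, 7 and 11, among the laminins 0, 4 and 2, and among the integrin genes 6, 12 and 10. On the LPS arrays 10, 20 and 28 genes were well above background on all 4 arrays of liver, kidney and muscle. Kidney PBS replicates 1 and 3 also had the highest shares of all spots above background (79.8% and 84.8%), whereas kidney PBS replicate 4 was at 54.6%. The part of this in the counts was not tested.

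**Figure D1:**
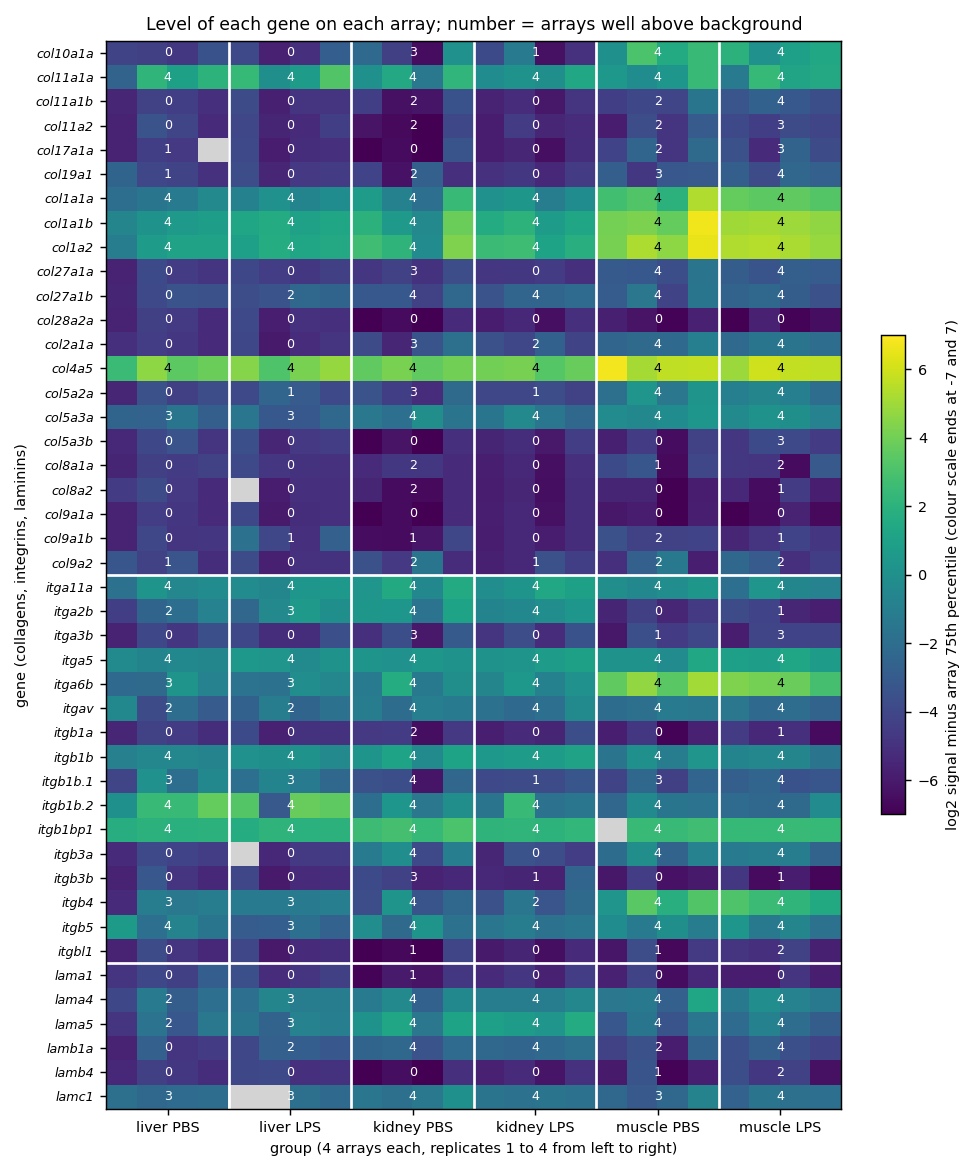
Level of each of the 44 genes (rows) on each of the 24 arrays (columns, 4 per group), as log2 signal relative to the 75th percentile of the array, with the number of arrays well above background printed for each gene and group and grey for spots left out as outliers. The type I collagen genes and *itga6b* are bright on the muscle arrays, and *col28a2a* and *col9a1a* are above background on no array.

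The type I collagen genes were higher in muscle than in both other tissues. They are *col1a1a*, *col1a1b* and *col1a2*, which code for the α chains of the main fibrillar collagen. On the PBS arrays they were higher in muscle than in liver by 24.5, 22.1 and 26.2-fold and higher in muscle than in kidney by 9.20, 9.10 and 7.57-fold. The *col1a1a* levels were -1.91, -1.55, -1.31 and -0.41 in liver PBS, 0.74, -0.85, -1.88 and 2.45 in kidney PBS and 2.75, 3.21, 1.99 and 5.31 in muscle PBS. The *col1a2* levels were -1.11, 0.7, 1.09 and 1.05 in liver, 2.69, 2.12, -0.24 and 4.32 in kidney and 4.16, 5.28, 4.59 and 6.54 in muscle. For the 3 genes no liver PBS array reached any muscle PBS array, whereas kidney PBS replicate 4 lay above the lowest muscle array, so that kidney and muscle overlapped. The difference of muscle from liver was 4.61 ± 0.71 (SE), adjusted p = 9.2e-05 for *col1a1a*, 4.47 ± 0.68 (SE), adjusted p = 8.45e-05 for *col1a1b* and 4.71 ± 0.7 (SE), adjusted p = 6.09e-05 for *col1a2*. The difference of muscle from kidney was 3.2 ± 0.71 (SE), adjusted p = 0.00369, 3.19 ± 0.68 (SE), adjusted p = 0.00281 and 2.92 ± 0.7 (SE), adjusted p = 0.00650 in the same order. On the LPS arrays the differences of muscle from liver were 3.92, 3.65 and 3.89, and no liver or kidney LPS array reached a muscle LPS array. The spread was wide in the kidney, where the mean of the 15 skeletal muscle markers was 1.67, -2.9, -2.72 and 2.15 on PBS replicates 1 to 4, against 2.65 to 5.1 on the muscle arrays and -4.74 to -2.28 on the liver arrays. Deviations from the group means had r = 0.63 between *col1a2* and these markers and 0.79 between *col1a2* and 11 fibroblast and tendon markers over 24 arrays, and their part in the result was not tested. With only kidney PBS replicate 4 left, whose array was scanned with the liver arrays, the difference of muscle from kidney shrank to 0.87, 0.85 and 0.82, none of which passed the test, the lone array being assumed to vary like the others.

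The 3 genes moved together from pool to pool. Once the mean of each group was removed, the levels on the 24 arrays correlated with r = 0.98 between *col1a1a* and *col1a1b*, 0.89 between *col1a1a* and *col1a2* and 0.92 between *col1a1b* and *col1a2*. On each array the 3 genes were read from the same RNA at the same depth. The duplicated genes *col1a1a* and *col1a1b* may share probe targets, which could not be examined because the files hold no probe sequences. The other probes gave the same direction, with differences of muscle from liver of 2.06 to 5.15 over 4 probes of *col1a1a*, 2.18 to 4.57 over 4 probes of *col1a1b* and 4.71 to 5.02 over 3 probes of *col1a2*.

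Some other fibrillar collagens were also higher in muscle than in liver, and some of these than in kidney too. *col5a2a*, a type V chain that is built into type I fibrils, was at -1.82, 0.28, -1.43 and 0.27 in muscle PBS, at -3.4, -4.42, -5.2 and -2.18 in kidney PBS and at -5.49, -3.51, -4.34 and -3.68 in liver PBS, where no array was well above background. All muscle arrays lay above all others. The muscle mean was at least 9.95-fold above liver, a bound set against the limit of detection on the liver arrays (limma adjusted p = 0.000253). The limit is the lowest signal of any probe marked well above background on that array, and spots not so marked can lie above it. This bound and those below therefore hold only against that limit. They compare group means and do not include the spread between arrays. Muscle was higher than kidney by 3.12 ± 0.61 (SE), adjusted p = 0.00123. *col5a3a*, another type V chain, was higher in muscle than in liver by 2.21 ± 0.47 (SE), adjusted p = 0.00215, with levels of -0.24, -0.47, -0.2 and 0.38 against -2.5, -2.59, -1.53 and -2.75. Against kidney *col5a3a* differed by 1.12, with overlapping groups, and was not called. *col27a1a*, a fibrillar collagen of cartilage in mammals, was at -3.04, -3.14, -3.61 and -1.62 in muscle PBS and at -4.8, -4.29, -4.94 and -3.67 in kidney PBS, a difference of 1.57 ± 0.41 (SE), adjusted p = 0.0124, and its second probe gave 0.52. Against liver, where no array was well above background, *col27a1a* was at least 2.89-fold higher (limma adjusted p = 0.00294), but its second probe went the other way, at -0.69. *col2a1a*, the type II collagen of cartilage, was well above background on all muscle arrays and on no liver array, and was at least 6.15-fold higher in muscle (adjusted p = 0.000914). Its 4 probes disagreed, with differences from -1.19 to 2.96, so that the difference rests on the brightest probe. Against kidney *col2a1a* differed by 1.69 and was not called (limma adjusted p = 0.0553).

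The largest difference among the collagens between muscle and liver was that of *col10a1a*, a short-chain collagen known from hypertrophic cartilage in mammals. Its levels were 0.01, 3.04, 1.56 and 2.41 in muscle PBS and -4.11, -4.37, -4.72 and -3.48 in liver PBS, where 0 of 4 arrays were well above background. By the bound against the limit of detection, the muscle mean was at least 56.1-fold above liver (limma adjusted p = 0.000696), and no values overlapped. In the kidney it was at -2.24, -4.32, -6.53 and 0.09, so that replicate 4 overlapped with muscle while replicate 3 was lowest, and the difference of muscle from kidney was 5.01 ± 1.11 (SE), adjusted p = 0.00367. The 4 probes of the gene all gave higher values in muscle in both comparisons.

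The basement membrane gene *col4a5* was bright in every tissue and brightest in muscle, with 2.56, 4.63, 3.45 and 3.88 in liver PBS, 3.6, 4.16, 3.55 and 4.0 in kidney PBS and 6.76, 5.09, 5.64 and 5.71 in muscle PBS. Muscle lay above the others on every array, by 2.17 ± 0.44 (SE), adjusted p = 0.00155 against liver and 1.97 ± 0.44 (SE), adjusted p = 0.00399 against kidney. Its second probe gave -0.38 and -0.68 for the same comparisons and thus did not share the difference. *col17a1a*, the transmembrane collagen of hemidesmosomes (the anchors of epithelial cells to the basement membrane), was well above background on 2 muscle PBS arrays and on no kidney PBS array, with levels of -4.21, -2.46, -4.85 and -2.15 against -8.6, -6.6, -9.73 and -3.34. Limma called muscle higher (adjusted p = 0.0136), but no fold is given, since the muscle mean also holds values at background. Kidney replicate 4 lay above muscle replicates 1 and 3, and with that kidney array alone the difference was -0.08. *col11a1a*, a chain of the cartilage fibrils, was above background on all 24 arrays, and *col27a1b* on every kidney and muscle array. *col11a1a* was called in no comparison of tissues, with means of 0.65 in liver PBS, 0.57 in kidney PBS and 0.77 in muscle PBS. Its 3 probes disagreed, with differences of muscle from liver from -0.12 to 3.04. Another 8 collagens were dim in most groups: *col9a1b*, *col8a1a*, *col8a2*, *col5a3b*, *col11a1b*, *col11a2*, *col19a1* and *col9a2* were above background on 3 to 10 of the 24 arrays.

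**Figure D2:**
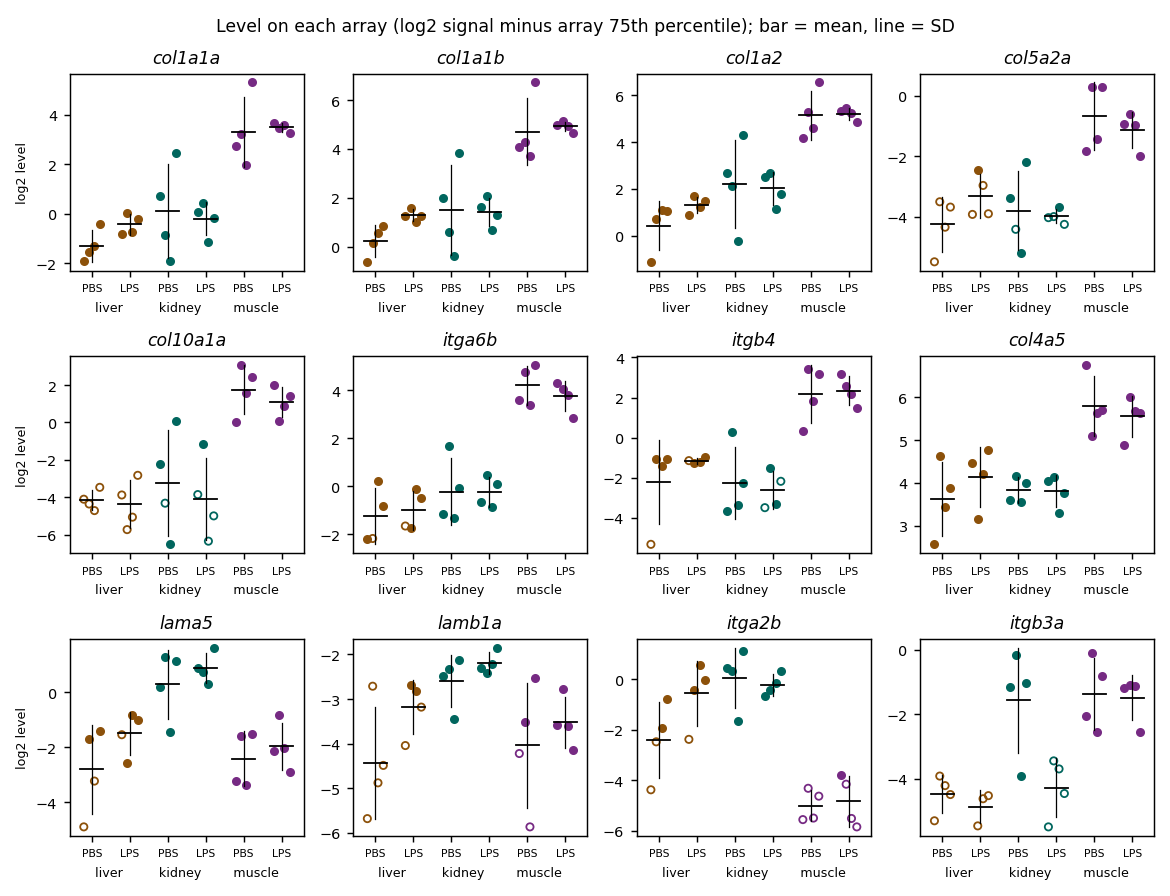
Levels of 12 genes on each array by tissue and treatment, as log2 signal relative to the 75th percentile of the array, with filled points for arrays well above background, open points for the others, a bar for the mean and a line for the SD of each group. Type I collagen, *col5a2a*, *col10a1a*, *itga6b* and *itgb4* are highest in muscle, *lama5* and *lamb1a* in kidney, and *itga2b* is near background in muscle.

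Of the 6 laminin chains, *lama5* and *lamb1a* were higher in kidney than in liver. *lama5*, the α chain of the laminins of mature vessels and epithelia, was at 0.18, 1.3, -1.43 and 1.15 in kidney PBS, -4.89, -1.69, -3.23 and -1.41 in liver PBS and -3.21, -1.58, -3.36 and -1.51 in muscle PBS. No muscle array reached the kidney arrays, and in the liver the highest array overlapped with the lowest kidney array. Kidney was 8.59-fold above liver (3.1 ± 0.72 (SE), adjusted p = 0.00651) and muscle was lower than kidney by 6.55-fold (-2.71 ± 0.72 (SE), adjusted p = 0.0134). The gene kept its call between kidney and liver on the LPS arrays, all of which were scanned on 1 day (2.37, adjusted p = 0.0356), and its 2 probes gave differences of 2.4 to 3.1.

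*lamb1a*, a β chain that pairs with α5, was well above background on 4 kidney PBS arrays and on 0 liver PBS arrays, with levels of -2.48, -2.33, -3.44 and -2.13 against -5.68, -2.71, -4.88 and -4.49. Kidney was at least 2.64-fold higher (adjusted p = 0.0311), although liver replicate 2 overlapped with the kidney arrays and 1 of the 3 probes gave a difference of -0.13. *lamc1*, the γ chain of most laminins, was at -1.83, -2.25, -2.12 and -2.0 in liver PBS, -1.51, -1.83, -1.38 and 0.04 in kidney PBS and -2.29, -3.09, -2.27 and -0.74 in muscle PBS, and its difference between kidney and liver was 0.88 ± 0.44 (SE), adjusted p = 0.165. *lama4*, the α chain of vessel and muscle basement membranes, was at -3.96, -1.29, -2.86 and -1.9 in liver PBS, -1.23, -0.39, -2.67 and -0.47 in kidney PBS and -1.43, -1.32, -2.73 and 1.27 in muscle PBS and was called in no comparison of tissues, although with the replicate number as a block its adjusted p between muscle and liver was 0.0480, against 0.164 without it. After removal of the group means, *lama5* and *lamb1a* correlated over 24 arrays with r = 0.71, whereas *lama5* and *lamc1* gave r = 0.13 over 22. *lama5* also went with the 12 endothelial markers (r = 0.9 over 24 arrays), of which 10 were well above background on all kidney arrays and 4 on all liver arrays. The mean of these markers ranged from 0.1 to 1.97 in kidney, -1.64 to -0.01 in liver and -1.48 to 0.1 in muscle. With the 13 kidney tubule and glomerulus markers *lama5* had r = 0.74 over 24 arrays. The part of either marker list in the result was not tested, and in tissue RNA fewer cells of a type cannot be told apart from less RNA per cell.

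Among the integrins, the pair α6β4, which binds laminin in hemidesmosomes, was high in muscle samples. *itga6b* was at -2.2, -2.17, 0.23 and -0.8 in liver PBS, -1.17, 1.69, -1.32 and -0.08 in kidney PBS and 3.57, 4.75, 3.4 and 5.04 in muscle PBS. *itgb4* was at -5.34, -1.06, -1.4 and -1.09 in liver, -3.68, 0.26, -3.37 and -2.29 in kidney and 0.31, 3.42, 1.81 and 3.19 in muscle. No liver or kidney array reached a muscle array for either gene. *itga6b* was 42.9-fold above liver (5.42 ± 0.65 (SE), adjusted p = 4.73e-06) and 21.3-fold above kidney (4.41 ± 0.65 (SE), adjusted p = 8.53e-05). *itgb4* was 21.2-fold above liver (4.41 ± 0.9 (SE), adjusted p = 0.00152) and 22-fold above kidney (4.46 ± 0.9 (SE), adjusted p = 0.00163), and its 3 probes gave differences from 3.97 to 4.64 between muscle and kidney. Both genes kept their calls in all 15 alternatives tried for each of these comparisons and without each of the 24 arrays in turn. None of these alternatives could separate muscle from its scan days.

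The 10 epidermal markers moved with these 2 genes. All 10 were well above background on all 8 muscle arrays, and their mean level was 1.71 to 3.97 in muscle, -2.21 to 0.09 in liver and -3.24 to 0.49 in kidney. Within the groups the deviations of the marker mean and of the genes had r = 0.83 for *itgb4* and 0.83 for *itga6b* over 24 arrays. For *col17a1a*, the hemidesmosome collagen, r was 0.36 over 23 arrays, and this gene was well above background on only 6 of the 24 arrays. Kidney PBS replicate 2, which had the highest epidermal mean of the kidney arrays (0.49), was also the highest kidney array for *itgb4* and *itga6b*. The part of epidermal RNA in the result was not tested.

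The genes *itga2b* and *itgb3a*, for the subunits of αIIbβ3, the fibrinogen receptor of platelets and thrombocytes, were higher in kidney than in liver, and of the pair only *itgb3a* was above background on the muscle PBS arrays. *itga2b* was at 0.44, 0.33, -1.68 and 1.1 in kidney PBS, -4.38, -2.48, -1.93 and -0.78 in liver PBS and -5.56, -4.32, -5.5 and -4.64 in muscle PBS, where no array was well above background. Kidney was at least 30.1-fold above muscle (limma adjusted p = 6.57e-05) with no overlap, and 5.44-fold above liver (2.44 ± 0.72 (SE), adjusted p = 0.0194), where the groups overlapped. *itgb3a*, the first of the pair of genes for β3, was at -1.16, -0.16, -3.92 and -1.01 in kidney PBS, -5.3, -3.91, -4.21 and -4.48 in liver PBS and -2.04, -0.11, -2.55 and -0.82 in muscle PBS. It was above background in 4, 0 and 4 arrays, so that kidney was at least 6.47-fold and muscle at least 7.35-fold above liver (adjusted p = 0.00760 and 0.00329), with kidney replicate 3 at the level of the highest liver array. *itgb3b*, the other β3 gene, was above background on 5 of the 24 arrays. The 3 thrombocyte markers other than *itga2b* had a mean of 0.05 to 2.22 on the kidney arrays against -2.03 to 0.46 in liver, where *mpl* and *zfpm1* were above background on no array, and -1.12 to -0.21 in muscle. Their part in the result was not tested. On the LPS arrays the differences of kidney from liver were 0.34 for *itga2b* and 0.59 for *itgb3a*, neither of which passed the test.

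The β1 genes lie next to each other on chromosome 2 of the assembly used for names (*itgb1b*, *itgb1b.2* and *itgb1b.1*, with none of the other named genes between the neighbours), and their levels are given one by one. *itgb1b*, the β chain shared by most collagen, laminin and fibronectin receptors, was at -0.9, -0.53, -0.49 and -0.72 in liver PBS, 0.23, 1.13, -0.29 and 1.14 in kidney PBS and -1.63, 0.04, -1.11 and 0.29 in muscle PBS. Kidney lay above liver on every array, by 1.21 ± 0.41 (SE), adjusted p = 0.0351. *itgb1b.2* was instead brightest in the liver, with 0.04, 2.51, 2.49 and 3.67 in liver PBS, -1.92, 0.36, -1.45 and -0.07 in kidney PBS and -2.37, -0.37, -1.55 and -1.69 in muscle PBS. Muscle was below liver by 12.7-fold (-3.67 ± 1.21 (SE), adjusted p = 0.0459), and with the replicate number as a block the adjusted p was 0.0516. This call held in 12 of 15 alternatives and in 12 of the 24 fits without 1 array. *itgb1b.1* differed between kidney and liver by -2.36 ± 0.78 (SE), adjusted p = 0.0318, with -3.53, -3.66, -6.22 and -2.4 against -4.08, 0.09, -1.93 and -0.44 and overlapping groups. *itgb1a*, the duplicate of *itgb1b* elsewhere in the genome, was above background on 3 of the 24 arrays.

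*itgb1b.2* went with the 9 hepatocyte markers. In the liver LPS group it was at 3.24, -3.11, 3.74 and 3.54, and the low replicate 2 is the array with the low hepatocyte markers. In the kidney LPS group it was at -1.6, 2.5, -1.77 and -1.5, and replicate 2, the high one, had a hepatocyte marker mean of 2.44 against -4.52 to -2.82 on the others. The deviations from the group means had r = 0.74 over 24 arrays. The part of hepatocyte RNA in these values was not tested.

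Other integrin genes were above background in most groups. *itga5*, the α chain of the fibronectin receptor, was at -0.28, -0.71, -0.49 and -0.58 in liver PBS, 0.23, 0.07, 0.41 and 0.15 in kidney PBS and 0.17, 0.12, -0.27 and 1.37 in muscle PBS, and was called in no comparison. *itgav*, the αv chain, was at -0.46, -3.72, -1.98 and -2.97 in liver, -1.11, -2.08, -0.98 and -1.26 in kidney and -2.05, -1.82, -1.23 and -1.39 in muscle, likewise with no call. *itgb1bp1* was at 2.61, 2.87, 2.37 and 3.04 in kidney PBS and 1.74, 2.0, 1.87 and 2.0 in liver PBS, a difference of 0.82 ± 0.24 (SE), adjusted p = 0.0197 with no overlap. *itga11a*, the α chain of a collagen receptor, was above background on every array. Its difference between kidney and liver was 1.28 ± 0.53 (SE), adjusted p = 0.0840, and with the replicate number as a block the adjusted p was 0.0461.

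*itgb5*, a partner of αv that binds vitronectin, followed another set of markers. Its levels were 0.65, -1.88, -0.73 and -1.57 in liver PBS, -0.12, -2.17, 0.27 and -1.79 in kidney PBS and -0.19, -1.3, -0.04 and -1.11 in muscle PBS, so that replicates 1 and 3 were the highest pair in every tissue. The mean of 23 oocyte markers was also highest on replicates 1 and 3, with 1.73, -1.67, 1.34 and 0.34 in liver, 1.29, -4.6, 1.89 and -5.0 in kidney and 2.54, -1.43, 2.61 and 0.26 in muscle. After removal of the group means, *itgb5* and this mean had r = 0.74 over 24 arrays. The sex of the fish is not given in the sources used here, and the part of oocyte RNA was not tested.

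**Figure D3:**
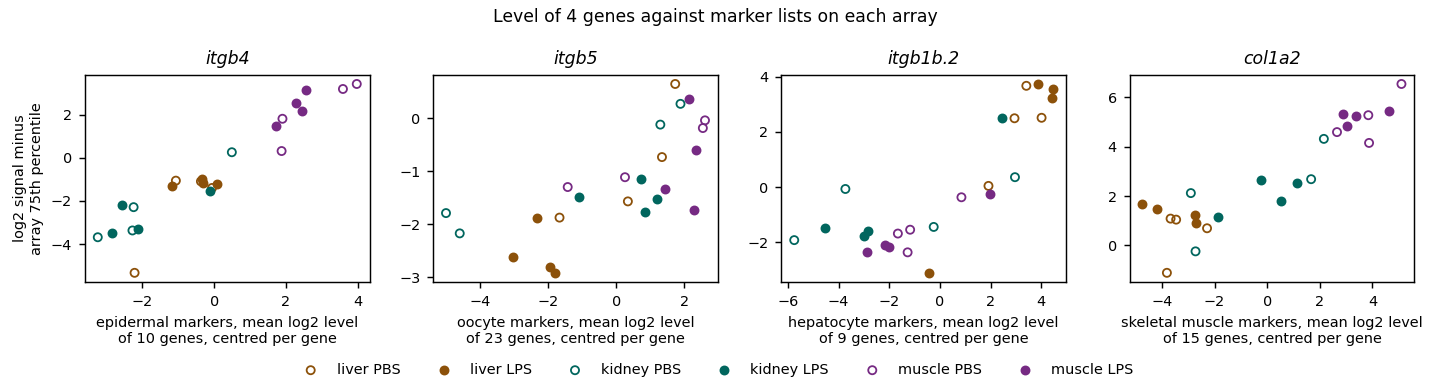
Level of 4 genes on each array (vertical axis, log2 signal relative to the 75th percentile) against the mean level of a marker list (horizontal axis, log2, each gene centred on its mean over 24 arrays), with open points for PBS and filled points for LPS. *itgb4* rises with the epidermal markers, *itgb5* with the oocyte markers, *itgb1b.2* with the hepatocyte markers and *col1a2* with the skeletal muscle markers.

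Between muscle and liver 15 of 44 genes were called (12 higher and 3 lower in muscle), where 16.4% of the 12480 genes tested were called, 9.14% higher and 7.23% lower. The collagens supplied 9 of the 12 higher genes, with a median difference of 1.41 over the 22 collagens, 0.43 over the 44 genes and 0.04 over all genes. Between muscle and kidney 12 of 44 were called (10 higher and 2 lower), against 13.9% of all genes, 7.32% higher and 6.54% lower. Of the 22 collagens 8 were called, with a median difference of 1.61 against 0.13 over all genes, and *col28a2a*, *col9a1a* and *col5a3b* were above background on none of these 8 arrays. Muscle and liver arrays did not overlap for 17 of 44 genes, against 20.1% of all genes with 4 values in each group, and muscle and kidney arrays for 7 of 44, against 12.1%. Between muscle and liver the LPS arrays called 18 genes, 14 of them among the 15. Between muscle and kidney the LPS arrays called 16 genes, 11 of them among the 12. The share of all genes called is not given for the LPS arrays or for the fits without some arrays. Counts from those fits therefore cannot be set beside such a share. Without the 3 kidney PBS arrays of another scan day only replicate 4 was left in that group, and the differences of the type I collagen genes shrank as given above. Without kidney PBS replicate 4 the muscle and kidney comparison called 21 genes, among them all 12.

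Between kidney and liver 13 of 44 genes were called, against 19.3% of all genes (7.66% higher and 11.7% lower), 6 of them higher in kidney (*lama5*, *itgb3a*, *itga2b*, *lamb1a*, *itgb1b* and *itgb1bp1*) and 7 lower. Of the lower genes, *col28a2a*, *col5a3b*, *col9a1a* and *lamb4* were well above background on no array of either group, *col8a2* on 2 and *lama1* on 1 of the kidney arrays only, and none of these 6 is given a fold. *col9a1a*, for example, was at -8.58, -6.57, -9.2 and -5.26 in kidney PBS and -5.6, -4.45, -4.76 and -5.27 in liver PBS, and its lowest values were on the 2 kidney arrays with the most spots above background. The seventh, *itgb1b.1*, is described above. Kidney and liver arrays did not overlap for 5 of 44 genes, against 12.6% of all genes. The count depended on single arrays: 2 genes were called without kidney PBS replicate 1, 7 without liver PBS replicate 3 and 8 without liver PBS replicate 4, and 2 on the LPS arrays (*lama5* and *col9a1b*). With kidney PBS replicate 4 alone, 6 genes were called, of which *lama5* and *itgb3a* were shared with the 13. The share of called genes that were higher in kidney was 39.7% over all genes and 6 of 13 here, and under quantile normalization it was 56.7% over all genes and 7 of 10 here.

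No collagen, laminin or integrin gene passed the test for a response to LPS in any tissue. In limma, with Benjamini-Hochberg adjustment over all probes, 0 of 41 genes were called in the liver, 0 of 40 in the kidney and 0 of 41 in the muscle, where 0.525%, 0.0750% and 0% of all genes tested were called. At an unadjusted p under 0.05 there were 4 genes in the liver, 1 in the kidney and 0 in the muscle, against 18.7%, 6.31% and 2.51% of all genes. No gene was called over the 24 arrays together or in the test of a difference in the LPS effect between tissues, where the smallest adjusted p were 0.979 and 0.377, and 0.369% and 0% of all 12480 genes were called. At an unadjusted p under 0.05 these tests gave 2 genes and 1 gene, against 5.01% and 12.6% of all genes. The median difference over the genes was 0.09 in liver, -0.06 in kidney and -0.02 in muscle, against 0.04, -0.02 and -0.09 over all genes. Precision was limited. The unadjusted 95% interval of a difference reached a median of 1.21, 1.49 and 1.30 to either side in liver, kidney and muscle. A call needed a stricter, adjusted threshold, so that larger changes than these could also be missed. In muscle the check gene *il1b* differed by 3.32 and was not called (limma adjusted p = 0.916). The type I genes *col1a1b* and *col1a2* and *col4a5* were not tested in muscle, and *col4a5* not in kidney, because their raw signal exceeded the upper limit of the filter on all 8 arrays. In muscle *col1a1b* was at 4.98, 5.12, 4.93 and 4.67 after LPS and 4.1, 4.27, 3.72 and 6.72 after PBS.

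**Figure D4:**
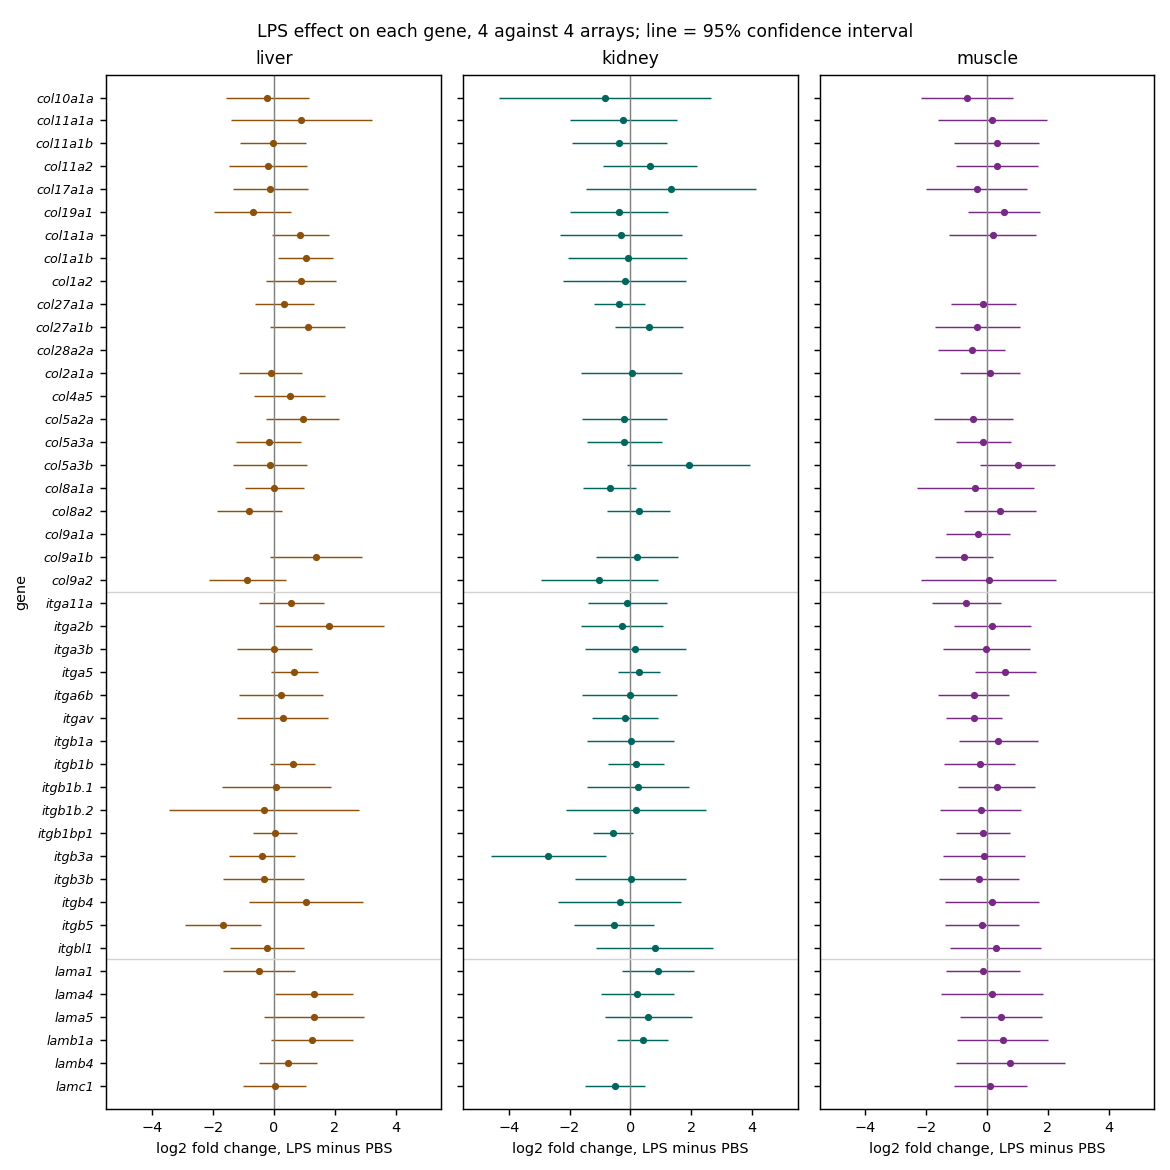
Difference in log2 level between LPS and PBS arrays for each of the 44 genes in liver, kidney and muscle (points, 4 against 4 arrays) with its 95% confidence interval (lines), genes outside the filter having no point. Most intervals include 0 and none of the differences passed the adjusted threshold.

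In the liver the smallest p-values belonged to *itgb5*, *col1a1b*, *lama4*, *itga2b* and *col9a1b*. *itgb5* was at 0.65, -1.88, -0.73 and -1.57 after PBS and at -2.92, -2.81, -1.88 and -2.62 after LPS, which did not overlap by a narrow margin, with a difference of -1.67 (95% interval -2.91 to -0.44, adjusted p = 0.189). The oocyte markers were also lower on the LPS arrays, at -1.8, -1.94, -2.33 and -3.03, and their part was not tested. The 4 probes of *itgb5* gave differences from -1.67 to 0.09. *col1a1b* was at -0.62, 0.13, 0.56 and 0.86 after PBS and 1.23, 1.6, 1.01 and 1.26 after LPS, with a difference of 1.04 (95% interval 0.14 to 1.95, adjusted p = 0.258). All LPS arrays were above all PBS arrays, and *col1a1a* and *col1a2* differed by 0.88 and 0.89 with overlapping groups, and on slide 2, which held 3 PBS arrays and LPS replicate 1, *col1a2* differed by -0.05. *itgb1b* also had separate groups, with -0.9, -0.53, -0.49 and -0.72 after PBS and 0.08, -0.01, 0.15 and -0.42 after LPS (difference 0.61, adjusted p = 0.441). Groups that did not overlap were found for 3 of 41 genes, against 13.0% of all genes.

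*lama4* was at -1.86, -0.62, -1.12 and -1.13 after LPS in the liver, with a difference of 1.32 (adjusted p = 0.312) that was 0.16 on slide 2, and *itga2b* was at -2.39, -0.42, 0.57 and -0.04, with a difference of 1.83 (adjusted p = 0.319). Both groups overlapped with PBS. The value of *itga2b* turned to -0.65 with the slide as a block, where the comparison rests on slide 2. *col9a1b* was above background on 1 of the 8 liver arrays.

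In the kidney the only gene with an unadjusted p under 0.05 was *itgb3a* (adjusted p = 0.556). Its levels were -1.16, -0.16, -3.92 and -1.01 after PBS and -5.48, -3.44, -3.69 and -4.45 after LPS, where no array was well above background. The fitted difference was -2.7 and did not pass the test, and its size is not exact because it rests on background values after LPS. PBS replicate 3 lay within the LPS values. On slide 4, which held PBS replicate 4 and LPS replicates 1 to 3, the difference was -3.19, with the same limit. The thrombocyte markers were at 1.12, 2.22, 0.12 and 1.77 after PBS and 0.05, 0.33, 0.25 and 1.19 after LPS, and *itga2b*, the α partner, was at -0.66, -0.44, -0.16 and 0.33 after LPS (difference -0.28, adjusted p = 0.942). *itgb1bp1* was at 2.09, 2.15, 2.06 and 2.27 after LPS, below all PBS arrays, with a difference of -0.58 (adjusted p = 0.556), and this was the 1 gene of 40 without overlap, against 5.63% of all genes. *col5a3b*, *col8a1a* and *lama1*, the others with the smallest p-values, were above background on at most 2 of the 8 arrays.

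In the muscle the genes with the smallest p-values were *col5a3b*, *col9a1b*, *itga5*, *itga11a* and *col19a1*, and no adjusted p was below 0.916. *itga5* was at 0.17, 0.12, -0.27 and 1.37 after PBS and 0.93, 0.86, 1.27 and 0.75 after LPS, with PBS replicate 4 above all LPS arrays (difference 0.6, 95% interval -0.39 to 1.6). It was higher after LPS in liver and kidney too, by 0.68 and 0.29, and by 0.52 ± 0.23 (SE) over the 24 arrays, with an adjusted p of 0.979. No gene of the 41 had separate groups in muscle, against 2.08% of all genes.

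Genes that act with this matrix were followed in 4 lists of 32 matrix glycoproteins and proteoglycans, 29 genes of collagen biosynthesis and crosslinking, 13 metalloproteinases and inhibitors and 25 integrin adaptors and other receptors on the array. In the liver 27, 27, 12 and 25 genes of these lists were tested and 1 was called after LPS, where 0.525% of all genes were called. In kidney and muscle 0 were called, against 0.0750% and 0% of all genes. The gene called in the liver was *timp2b*, an inhibitor of matrix metalloproteinases. Its levels were -1.92, -1.67, -1.87 and -1.11 after PBS and 1.83, 2.69, 2.01 and 2.93 after LPS, a 16.1-fold rise (4.01 ± 0.4 (SE), adjusted p = 0.00322) with no overlap, and on the 1 slide that held both treatments the difference was 3.38. In the kidney the difference was 2.38, also without overlap, and in the muscle 2.03, with adjusted p of 0.369 and 0.916. Within slides it was 1.08 on slide 4 in the kidney and 0.15 and 2.66 on slides 6 and 7 in the muscle. Other proteinase and matrix genes did not pass the test after LPS. *mmp9* (gelatinase B) differed by 1.64 in liver, -1.47 in kidney and -0.27 in muscle, and *mmp14b* by 1.48, 0.79 and 0.03. *serpinh1b*, the collagen chaperone, differed by -1.14 in muscle, and *fn1a* (fibronectin) by -1.44 in liver, 0.49 in kidney and 0.44 in muscle, none of them called. *fn1b* was outside the filter in the liver, and differed by -0.49 in kidney and 0.3 in muscle.

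Of the matrix glycoproteins and proteoglycans, 12 of 31 tested were higher and 1 lower in muscle than in liver, and 14 higher and 1 lower in muscle than in kidney, with median differences of 1.44 and 1.95. Over all genes 9.14% were called higher and 7.23% lower in muscle than in liver, and 7.32% and 6.54% against kidney. The fibril-binding proteoglycan *lum*, measured on 3 of the liver arrays, was at least 56.7-fold and the proteoglycan *vcanb* at least 28.4-fold higher in muscle than in liver, and *postnb* (periostin) was higher by 4.47 ± 0.54 (SE), adjusted p = 5.17e-06. Against kidney the 4 largest were *lum* (5.27), *thbs4b*, a thrombospondin of tendon (4.86), *dpt* (4.49) and *bgna*, a biglycan (3.66). The exception in sign was *vtna* (vitronectin), lower in muscle than in liver by 36.0-fold (-5.17 ± 1.61 (SE), adjusted p = 0.0349). Of the biosynthesis genes 5 of 28 were higher and 0 lower in muscle than in liver, among them the lysyl oxidase *loxa* (4.88 ± 0.8 (SE), adjusted p = 0.000218) and *serpinh1b*, at least 4.29-fold. Against kidney only 1 of the 28 was higher and 1 lower. Of the proteinases and inhibitors 6 of 13 were higher in muscle than in liver, *mmp2* (gelatinase A) by 3.06 ± 0.57 (SE), adjusted p = 0.000625 and *mmp30* at least 13.6-fold. Against kidney 3 of the 13 were higher and 2 lower. The 11 fibroblast and tendon markers include *lum*, *thbs4b* and *dpt*, so that they share genes with the list of matrix glycoproteins and proteoglycans. The marker mean was 0.49 to 2.39 in muscle, -2.66 to 0.59 in kidney and -1.32 to 0.47 in liver. In liver 8 of the 11 were above background on no array, and the part of these markers was not tested.

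Of 25 adaptors and receptors 8 were higher and 0 lower in kidney than in liver, where 7.66% of all genes were called higher and 11.7% lower, with the laminin receptor *bcam* (3.6 ± 0.61 (SE), adjusted p = 0.000402), the kindlin of blood cells *fermt3b* (3.49 ± 0.51 (SE), adjusted p = 6.36e-05) and the parvins *parvg* (3.31) and *parvb* (2.16) leading. *fermt3b* was at 0.63, 1.14, -0.94 and 1.23 in kidney PBS, -3.22, -3.52, -3.2 and -1.94 in liver PBS and -2.42, -1.95, -2.81 and -1.54 in muscle PBS, above both other tissues on every array. *mmp9*, which leukocytes carry, was 28.0-fold higher in kidney than in liver (4.81 ± 0.58 (SE), adjusted p = 5.71e-06), and *adam8a* differed by 3.23. The 16 leukocyte markers had a mean of -0.16 to 2.24 in kidney, -1.56 to 0.54 in liver and -1.97 to 0.06 in muscle. Of these markers 11 were above background on all 8 kidney arrays, 9 on all 8 liver arrays and 9 on all 8 muscle arrays, while *csf3r* and *rag1* were above background on no liver or muscle array. The part of the leukocyte markers was not tested. Of the matrix glycoproteins 2 were higher and 6 lower in kidney than in liver, beside the same shares of all genes, led by the vitronectins *vtnb* (-6.03) and *vtna* (-4.74), and *loxl1*, a lysyl oxidase, was at least 6.79-fold higher in kidney.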

How the data were processed

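Expression was measured on 24 one-colour arrays, 4 pools of 3 fish for each of 6 groups. The authors extracted the spot intensities with Agilent Feature Extraction (10.4.0.0 in the submitters' processing notes and 10.7.3.1 per the file headers), which subtracts the background and detrends each array. The deposited intensities are not normalised between arrays. The authors also deposited a table of log2 values shifted at the 75th percentile, with an offset per probe that is not described, which was used only as an alternative.

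Here log2 of the processed signal minus the 75th percentile of each array was analysed with limma 3.58.1 in R 4.3.3, after control and outlier spots were left out and spots of a probe averaged. Probes were tested when their raw signal lay between the 20th and 95th percentiles on at least 1 array of the comparison, and p-values were adjusted by the Benjamini-Hochberg method over all probes. LPS was compared with PBS within each tissue on 8 arrays, and tissues on the PBS arrays within a fit of 24 arrays in 6 groups. All tests were two-sided. The labels describe the 4 arrays of a group as separate pools. They do not say whether 1 replicate number marks the same fish across tissues. A probe not well above background on any array of 1 group gives a bound against the limit of detection ("at least"). That limit is the lowest signal of any probe marked well above background on the array. Spots not so marked can lie above it, such as *lamc1* at -2.25 in liver PBS replicate 2, so that the bound is not a strict lower limit of the fold. The bound compares group means and includes no sampling error, and the number of arrays limits the precision. Symbols came from RefSeq accessions for 25069 of 43603 probes. The script was tested on simulated data.

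The genes and lists were chosen with earlier results of these data known. Named genes were those called without overlap of the groups, the 5 with the smallest p-values after LPS, a list of basic matrix genes of which those on the array are given, and the leading called genes of 4 partner lists; *mmp13a* had no probe. Others (*col5a3a*, *col17a1a*, *itgb5* and its markers, *itgb1b.1* and the genes at background) were chosen after their values were seen. Deviations of samples with 1 replicate number had r from 0.28 to 0.64 between kidney PBS and LPS, where unlike numbers had -0.65 to 0.46. Between tissues on the PBS arrays like numbers had r from 0.14 to 0.72 and unlike numbers -0.68 to 0.66. Between tissues on the LPS arrays like numbers had r from -0.51 to 0.25. A fit with the number as a block was compared.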

Additional observations from a re-analysis of the deposited data

Results flagged for a closer look

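In 10 of 143 sets of 4 arrays (a gene in a group) 1 array lay far from the other 3, its gap to the nearest as a share of the whole range exceeding Dixon's 95% critical value for 4 samples, which chance alone exceeds in about 5% of sets. *col9a1b* was at -3.54 in muscle PBS replicate 1, against -4.3 to -4.19 on the other 3 arrays. *itgb1a* was at -6.48 in kidney PBS replicate 3, against -4.67 to -4.57 on the other 3 arrays. Its signal was well above background on replicates 1 and 3 of that group and not on replicates 2 and 4. *itgb1b* was at -1.6 in muscle LPS replicate 4, against -0.68 to -0.5 on the other 3 arrays. *itgb1b.2* was at -3.11 in liver LPS replicate 2, against 3.24 to 3.74 on the other 3 arrays. *itgb1b.2* was at 2.5 in kidney LPS replicate 2, against -1.77 to -1.5 on the other 3 arrays.

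*itgb1b.2* was at -0.24 in muscle LPS replicate 4, against -2.35 to -2.09 on the other 3 arrays. *itgb3a* was at -2.53 in muscle LPS replicate 4, against -1.19 to -1.08 on the other 3 arrays. *itgb3b* was at -2.43 in kidney LPS replicate 4, against -5.73 to -5.43 on the other 3 arrays, which were not well above background. *itgb4* was at -5.33 in liver PBS replicate 1, against -1.4 to -1.06 on the other 3 arrays. *lama4* was at -0.53 in kidney LPS replicate 4, against -1.14 to -1.09 on the other 3 arrays. *itgb1b.2* was apart in 3 of the 6 groups, and muscle LPS replicate 4 was apart for 3 genes. The hepatocyte markers had their lowest value of the liver arrays in liver LPS replicate 2, and on muscle LPS replicate 4 they were the highest of the muscle arrays. The part of this in the values was not tested.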

How the results depend on the processing

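After LPS 0 genes of the families were called in liver, kidney, muscle, over all tissues and in the test of a difference between tissues under every alternative run. Between muscle and liver the count of 15 ranged from 11 to 20 over the alternatives and from 12 to 16 without 1 array. Between kidney and liver the 13 calls became 2 on the LPS arrays, 2 with normexp background correction, 2 with the 12 PBS arrays alone, 5 among genes above background on at least 4 arrays and 6 without the 3 kidney PBS arrays of another scan day, an alternative chosen after seeing the data, and ranged from 2 to 14 without 1 array. Between muscle and kidney the 12 calls became 7 with the 12 PBS arrays alone and 5 without those 3 kidney arrays, and ranged from 11 to 21 without 1 array. The cause was not tested.

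Among the genes named by rule, these fitted values changed sign after LPS: *itga2b* in liver to -0.65 with slide as a block, *col5a3b* in kidney to -0.54 with slide, -0.26 with scan day and -0.26 without the 3 kidney arrays, *lama1* in kidney to -0.54, -0.33 and -0.33 in the same settings, and *col5a3b* in muscle to -0.11 with normexp. Between tissues *col8a2* (muscle against liver, 0.24 with normexp) and *elnb* (kidney against liver, 0.38 without the 3 kidney arrays) changed sign, as did *col17a1a*, outside the rule (muscle against kidney, -0.08 without those arrays). Within slide 2 *col1a2* in liver was -0.05. With the replicate number as a block, 0 genes were called after LPS and 13, 15 and 15 between kidney and liver, muscle and liver, and muscle and kidney. That block added *col1a1a*, *col1a2* and *itga11a* (adjusted p = 0.0381, 0.0335 and 0.0461) between kidney and liver, *lama4*, *col27a1b* and *lama1* (0.0480, 0.0438 and 0.0429) between muscle and liver, and *col2a1a*, *col5a3b*, *itgb1b* and *lamb1a* (0.0423, 0.0495, 0.0285 and 0.0475) between muscle and kidney. *itgb1b.2* lost its call, and *col8a2*, *itgb1bp1*, *itgb3a* and *col17a1a*, with a spot left out on some array, were not tested with the block. With slide as a random block the counts were 13, 13 and 12. Setting each array at its 50th percentile moved the median of all genes between kidney and liver from -0.03 to -0.21, and higher calls from 39.7% to 31.0% of all calls (members 5 higher, 9 lower), and with normexp the higher calls were 51.3%. Between muscle and liver higher calls went from 55.8% to 43.8% (members 12 and 4). Normexp moved the median of all genes to 0.33 between muscle and liver and 0.31 between muscle and kidney. Scan day as a block could not be fitted in liver, where all arrays were scanned on 1 day, nor slide as a fixed block between tissues, since each slide held 1 tissue. Muscle shared no scan day with liver or kidney, so that no alternative separated muscle from scan day.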
